A study of Mus musculus with 12 samples.

Results

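The genes described here are 8 genes of mevalonate and cholesterol synthesis and of its control, Hmgcs1, Idi1, Fdps, Fdft1, Sqle, Srebf2, Insig1 and Ggps1. They were found by symbol among the 22462 genes of a ribosome profiling count table, which listed all 8. The table sets embryonic stem cells (ESCs) of the mouse against epiblast-like cells (EpiLCs), a more advanced pluripotent state, and the study asked how far translation changes along with mRNA in this transition. The medium of ESCs was Knockout DMEM with LIF, 15% serum of fetal bovine origin, and 2i, the inhibitors PD0325901 (of MEK) and CHIR99021 (of GSK3). EpiLCs were made from ESCs and harvested about 56 hours after the LIF and 2i medium had been taken off. The labels name no deletion and no other agent for either cell type. The study's methods give a V6.5 ESC line with fluorescent reporters of a pair of microRNA clusters for this differentiation, which is a single cultured line as far as they say. Each cell type was sequenced in 3 libraries of ribosome protected fragments (RPFs), short pieces of mRNA that a translating ribosome shields from nuclease, and 3 of total RNA, 12 in all.

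The mevalonate pathway turns acetyl-CoA into isoprenoids. Hmgcs1 (HMG-CoA synthase) acts at its start, Idi1 (isopentenyl diphosphate isomerase) interconverts the 5-carbon units, and Fdps (farnesyl diphosphate synthase) joins them to farnesyl diphosphate. At this branch point Fdft1 (squalene synthase) and Sqle (squalene epoxidase, a rate-limiting step) lead to cholesterol, whereas Ggps1 makes geranylgeranyl diphosphate, the lipid that is attached to Rab and other small GTPases. Srebf2 encodes SREBP2, the membrane-bound transcription factor that turns on these genes when sterols are low, and Insig1 encodes a protein of the endoplasmic reticulum that holds the SREBP complex back when sterols are high. SREBP2 binds the sterol regulatory element (SRE), commonly next to boxes bound by NF-Y and Sp1.

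Most of these genes moved little or moved alike in RNA and in RPF, and Ggps1 departed most from this, on few RPF reads. Hmgcs1 and Sqle rose by 1.61-fold and 1.79-fold in total RNA and by 1.62-fold and 1.79-fold in RPF, so their ratio of RPF to total RNA was nearly the same in both cell types. Fdps rose 2.21-fold in RPF and 1.27-fold in total RNA, also on few RPF reads. Ggps1, with a total RNA change of 0.071 on the log2 scale, fell by 1.48 on that scale in RPF, so that its RPF were 2.80-fold lower in EpiLCs. These changes are from voom and limma across all genes tested, and a gene is said here to be called where its Benjamini-Hochberg adjusted p was below 0.05 with an absolute log2 change above 1. Ggps1 alone was called for the difference between its RPF and total RNA changes (limma adjusted p = 0.0474). That call held in 4 of 10 other settings of the fit and in 3 of 12 fits without one library. The EpiLC RPF libraries held 4 to 26 reads of Ggps1.

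The promoter sequences of 3 members are shown because they span the patterns found, a gene that rose in both assays (Hmgcs1), the gene of the transcription factor itself (Srebf2) and the gene called lower in RPF (Ggps1). RefSeq promoter windows on GRCm38.p6, from 250 bases before to 50 bases after the start of transcription, were matched for 5 of the 8 members. Fdps, Fdft1 and Sqle had none. Below are the 220 bases before the start, 5′ to 3′ on the gene's strand, at chr13:119690131-119690350 (plus strand) for Hmgcs1, chr15:82147049-82147268 (plus strand) for Srebf2 and chr13:14063489-14063708 (minus strand) for Ggps1. Capitals mark matches to the SRE core TCACNCCAC, to the NF-Y box CCAAT or to the Sp1 box GGGCGG on either strand.
Hmgcs1: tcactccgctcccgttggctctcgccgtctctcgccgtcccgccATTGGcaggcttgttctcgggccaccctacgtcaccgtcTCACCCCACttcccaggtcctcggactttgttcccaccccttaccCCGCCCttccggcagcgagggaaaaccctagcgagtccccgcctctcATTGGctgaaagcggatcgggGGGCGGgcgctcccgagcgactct
Srebf2: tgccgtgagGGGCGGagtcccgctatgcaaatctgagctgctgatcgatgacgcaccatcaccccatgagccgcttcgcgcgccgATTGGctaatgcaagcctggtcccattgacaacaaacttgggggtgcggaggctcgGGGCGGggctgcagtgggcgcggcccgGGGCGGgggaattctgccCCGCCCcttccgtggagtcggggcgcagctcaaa
Ggps1: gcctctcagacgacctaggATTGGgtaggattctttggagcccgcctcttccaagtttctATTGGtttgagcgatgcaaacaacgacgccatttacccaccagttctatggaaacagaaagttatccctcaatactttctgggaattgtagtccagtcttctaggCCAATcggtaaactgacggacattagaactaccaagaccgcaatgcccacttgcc

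The Hmgcs1 window held the SRE core, 137 bases before the start, together with 4 NF-Y boxes and 3 Sp1 boxes over its 300 bases. Of 32851 promoter windows in the same table, 1.24% held the SRE core, 37.4% an NF-Y box and 35.7% an Sp1 box, and no pair of matches overlapped in the windows of the members. The windows of Srebf2, Insig1, Idi1 and Ggps1 held no match to the SRE core. Srebf2 had 1 NF-Y box and 5 Sp1 boxes, Insig1 had 1 and 3, and Idi1 had 2 and 1. Ggps1 had 3 NF-Y boxes and no Sp1 box. A match to these letters is a description of the sequence and no evidence of binding.

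The libraries held 2681439 to 14655015 counts, the EpiLC RPF libraries being the shallowest on average (2681439 to 5413144). Values below are CPM, in which the TMM scaled total of every library is set equal. Naive and primed markers went with the labels. The summed level of 6 naive markers, Zfp42 and Esrrb among them, in total RNA was 1574 to 1783 CPM in ESCs and 49.7 to 94.1 CPM in EpiLCs, and that of 5 primed markers, such as Otx2 and Fgf5, was 169 to 266 CPM and 1312 to 1418 CPM. The summed level of 3 shared pluripotency markers in total RNA was lower in EpiLCs, at 2154 to 2372 CPM in ESCs and 1082 to 1242 CPM in EpiLCs. Sox2 had a mean of 191.8 and 28.4 CPM, Nanog 500.8 and 166.3 CPM, and Pou5f1 1556 and 987 CPM. Markers of other cell types also moved between the cell types. The summed level of 5 neural markers in total RNA was 128 to 157 CPM in ESCs and 303 to 376 CPM in EpiLCs, with Nes at a mean of 53.0 and 283.6 CPM and Tubb3 at 78.7 and 46.4 CPM. The summed level of 6 fibroblast feeder markers was 1.97 to 2.31 CPM in ESCs and 12.8 to 14.9 CPM in EpiLCs. That of 5 trophoblast markers was 49.7 to 57.7 CPM in ESCs and 7.05 to 11.02 CPM in EpiLCs. Most of this trophoblast sum in ESCs was Tfap2c, with a mean of 46.8 CPM in ESCs and 4.69 CPM in EpiLCs. Eomes was also lower in EpiLCs, whereas the low level of Gata3 had a higher mean there. The fall of the sum is therefore mainly that of a single gene. Primitive endoderm and mesoderm markers summed to at most 5.39 and 5.47 CPM in a total RNA library. Of the defining markers, Postn and Elf5 had 0 counts in all 12 libraries, and Cdx2 and Neurog2 had at most 1. The part of other cells in the changes below was not tested, and in bulk samples a change in the number of cells of a type cannot be told apart from a change in RNA per cell.

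Before the changes, the levels per length set these genes apart. In ESC total RNA, per kilobase of counted sequence, Hmgcs1 stood first with 308 ± 6.07 CPM per kb (SD, n = 3). Sqle followed with 111 ± 0.631 CPM per kb, then Srebf2 with 103 ± 5.86, Fdft1 with 102 ± 4.81 and Insig1 with 91.4 ± 3.90, all in CPM per kb. Reads from shared sequence were left out of these levels too, since 53.7% of the 29-base windows of Fdft1 (38.1% of 45-base windows, shared with Gm6781), 30.1% of those of Hmgcs1 and 15.3% of those of Insig1 occur in transcripts of other genes, against 0 for Sqle and Srebf2. The order of Fdft1 and of Insig1 among their neighbours is therefore uncertain. Among these, the libraries of Srebf2 (97.3 to 109 CPM per kb) and Fdft1 (97.6 to 107 CPM per kb) overlapped. Ggps1 was close to the median of the tested genes, with 21.6 ± 1.51 CPM per kb against a median of 21.8. Of its 29-base windows 51.0% are shared with another gene, and of its 45-base windows 35.4%. Its levels and percentiles in both assays therefore leave out reads as well. Fdps (8.97 ± 1.57 CPM per kb) and Idi1 (2.10 ± 0.364 CPM per kb) were lowest, but these levels leave out reads from sequence shared with other genes, as described below. In EpiLC total RNA the first places were again Hmgcs1 (495 ± 31.96 CPM per kb) and Sqle (200 ± 12.5 CPM per kb), which moved from percentile 88.6 to percentile 95.3 of the tested genes. In RPF, Hmgcs1 reached 488 ± 15.3 CPM per kb in ESCs and 791 ± 59.7 CPM per kb in EpiLCs, percentiles 97.7 and 99.1. The lowest tested member in EpiLC RPF was Ggps1, with 3.85 ± 2.28 CPM per kb, at percentile 15.9, where its level in ESC RPF had been 11.3 ± 2.69 CPM per kb, at percentile 37.5.

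**Figure D1:**
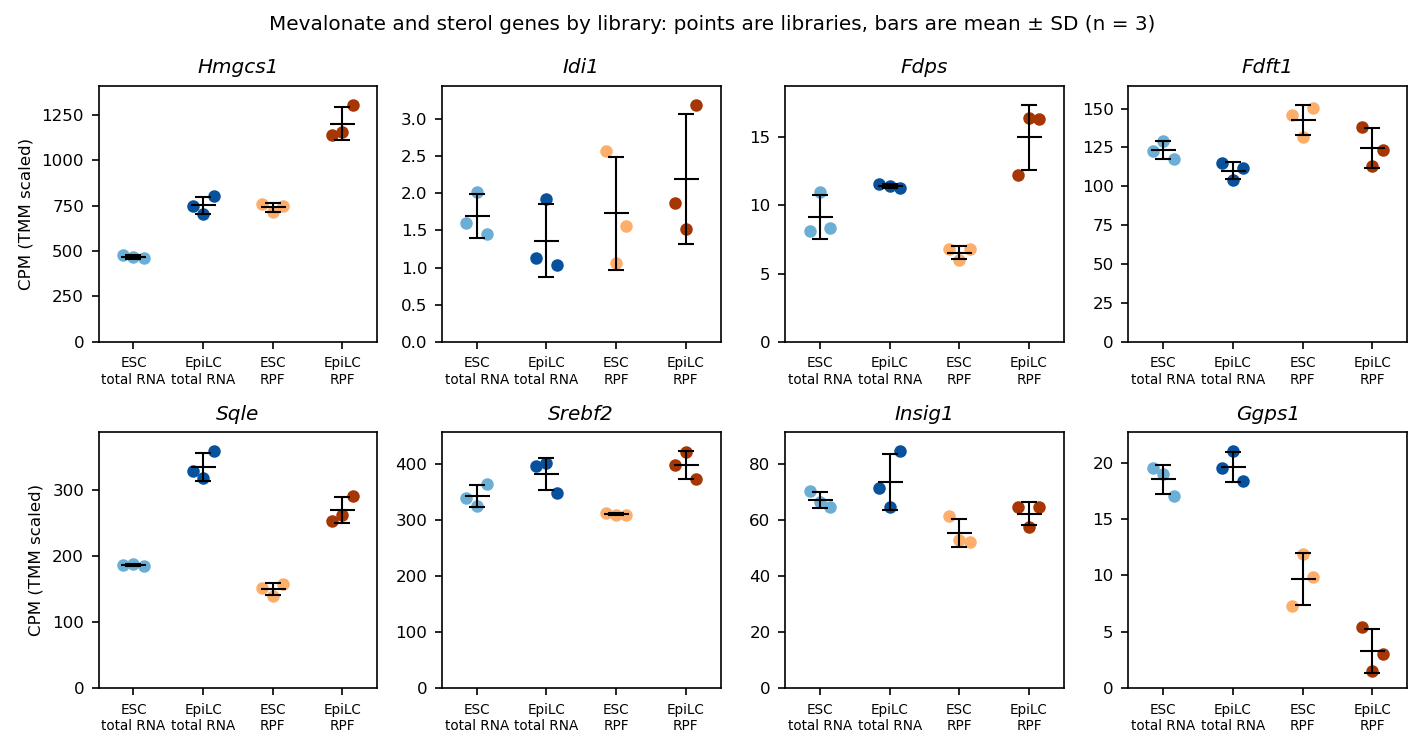
CPM of each of the 8 genes on a linear axis that starts at 0 in every panel, by cell type and assay. Points are the 3 libraries of a group and bars the mean ± SD. The EpiLC libraries of Hmgcs1 and Sqle lie above all ESC libraries in both assays, and the EpiLC RPF libraries of Ggps1 lie at 1.52 to 5.39 CPM, below all its ESC RPF libraries at 7.31 to 11.9 CPM.

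Hmgcs1, the enzyme that condenses acetyl-CoA with acetoacetyl-CoA, (ENSMUSG00000093930.1) was counted over 1518 nt of coding exons at chr13:119699719-119706478 (mm10, plus strand). Its total RNA was 478, 466 and 459 CPM in ESC replicates 1 to 3 and 748, 704 and 801 CPM in EpiLC replicates 1 to 3. Its RPF were 757, 714 and 750 CPM in ESCs and 1141, 1154 and 1305 CPM in EpiLCs. All 3 EpiLC libraries were above all 3 ESC libraries in both assays. The change was 0.68 on the log2 scale in total RNA (SE 0.056, limma adjusted p = 7.83e-11) and 0.70 in RPF (SE 0.058, limma adjusted p = 1.81e-10), which passed the p threshold but not the fold threshold. The difference between these changes, the change in translational efficiency (TE), was 0.013, with a 95% confidence interval of −0.15 to 0.18.

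Sqle, which puts the first oxygen into the sterol chain, (ENSMUSG00000022351.14) was counted over 1674 nt of coding exons at chr15:59315890-59330917 (mm10, plus strand). Its total RNA was tightly grouped at 187, 187 and 185 CPM in ESCs and stood at 328, 317 and 358 CPM in EpiLCs. Its RPF were 151, 140 and 158 CPM in ESCs and 253, 262 and 290 CPM in EpiLCs. Again no library of one cell type reached into the range of the other. The log2 change was 0.84 in total RNA (SE 0.062, limma adjusted p = 1.11e-11) and 0.84 in RPF (SE 0.075, limma adjusted p = 7.33e-10), and TE changed by −0.0045 with an interval of −0.20 to 0.20.

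Fdps (ENSMUSG00000059743.12) lies at chr3:89093643-89100764 (mm10, minus strand). Its total RNA was 8.09, 10.96 and 8.32 CPM in ESCs and 11.6, 11.4 and 11.2 CPM in EpiLCs, a log2 change of 0.34 that did not pass the threshold (SE 0.16, limma adjusted p = 0.0618). Its RPF were 6.79, 5.96 and 6.79 CPM in ESCs and 12.2, 16.4 and 16.3 CPM in EpiLCs, and the groups did not overlap. The RPF change of 1.145 (SE 0.22, limma adjusted p = 8.39e-05) was called. The larger rise in RPF than in total RNA gave a TE change of 0.80 (SE 0.27), with a 95% interval of 0.24 to 1.36 but a limma adjusted p of 0.158 over all genes. These values are uncertain. Of the 1017 counted nt of Fdps, 878 lie on the same strand in another gene of the annotation, Gm43738, and 98.2% of the 29-base windows of its coding sequence also occur in a transcript of another gene. Transcripts of Gm43738 are among those matched. The authors kept reads with a single mapping position, a filter that does not by itself remove reads where annotated genes overlap. The study's methods do not state how such reads were assigned at counting. An RPF library held 28 to 87 counts of Fdps, and the part of each kind of sharing in this was not tested.

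Idi1, the isomerase that supplies Fdps, was too low to test. At chr13:8885905-8890635 (mm10, plus strand) a total RNA library held 17 to 24 counts of it in ESCs and 9 to 17 in EpiLCs, and an RPF library 5 to 20 and 4 to 17. Its ranges overlapped between the cell types in both assays, at 1.46 to 2.02 CPM against 1.03 to 1.92 CPM in total RNA and 1.06 to 2.56 CPM against 1.52 to 3.19 CPM in RPF. Of its 29-base windows 84.2% are shared with other genes, so this low level is no measure of how much Idi1 RNA the cells held.

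Fdft1, which commits farnesyl diphosphate to sterols, did not follow Hmgcs1 and Sqle. At chr14:63146750-63177736 (mm10, minus strand) its total RNA was 123, 129 and 118 CPM in ESCs and 115, 104 and 111 CPM in EpiLCs, with no overlap. Its RPF were 146, 132 and 150 CPM in ESCs and 138, 113 and 123 CPM in EpiLCs, with overlap. The log2 changes of −0.15 in total RNA (95% interval −0.30 to −0.0023, limma adjusted p = 0.0692) and −0.19 in RPF (95% interval −0.37 to −0.017, limma adjusted p = 0.0547) missed the threshold. Under 11 other settings of the fit the adjusted p of the total RNA change was 0.0151 to 0.0995 and that of the RPF change 0.0176 to 0.0999, below 0.05 in 6 of 11 for each.

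The 2 control genes moved less than the enzymes Hmgcs1 and Sqle. Srebf2 (chr15:82147448-82203917, mm10, plus strand) had 340, 326 and 365 CPM in ESC total RNA and 397, 402 and 350 CPM in EpiLC total RNA, with overlap. Its RPF rose without overlap, from 314, 310 and 310 CPM in ESCs to 399, 423 and 374 CPM in EpiLCs. The RPF change was 0.35 (SE 0.069, limma adjusted p = 1.26e-04), and with GC correction it was 0.21 (adjusted p = 0.00624) and the total RNA change 0.078 (adjusted p = 0.227). The total RNA change was 0.16 (SE 0.060, limma adjusted p = 0.0249). Its adjusted p was below 0.05 in 3 of 11 other settings and in 2 of 12 fits without one of the libraries, with adjusted p up to 0.230 and 0.133. The TE change of Srebf2 was 0.19 (95% interval 0.00077 to 0.38, limma adjusted p = 0.358).

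Insig1 (chr5:28071483-28076820, mm10, plus strand) is itself a target of SREBP, so that its RNA is commonly read beside that of the enzymes. Its total RNA was 70.3, 66.6 and 64.6 CPM in ESCs and 71.4, 64.7 and 84.5 CPM in EpiLCs. Its RPF were 61.3, 53.0 and 52.3 CPM in ESCs and 64.5, 57.4 and 64.6 CPM in EpiLCs. Both ranges overlapped. The changes were 0.13 in total RNA (95% interval −0.052 to 0.31, limma adjusted p = 0.202) and 0.18 in RPF (95% interval −0.055 to 0.42, limma adjusted p = 0.176). With GC correction they were 0.066 and 0.073.

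Ggps1, the synthase of geranylgeranyl diphosphate, (ENSMUSG00000021302.10) was counted over 858 nt of coding exons at chr13:14053694-14057820 (mm10, minus strand), downstream of the promoter window shown above. Its total RNA was 19.5, 19.0 and 17.1 CPM in ESCs and 19.5, 21.0 and 18.3 CPM in EpiLCs, with overlapping ranges and a log2 change of 0.071 (95% interval −0.20 to 0.35, limma adjusted p = 0.658). Its RPF were 7.31, 11.9 and 9.91 CPM in ESCs and 5.39, 1.52 and 3.00 CPM in EpiLCs. All EpiLC RPF libraries were below all ESC RPF libraries. The RPF change was −1.48 (SE 0.37, limma adjusted p = 0.00124) and the TE change −1.55 (SE 0.39, 95% interval −2.36 to −0.75, limma adjusted p = 0.0474). In counts, the EpiLC RPF libraries held 26, 4 and 16 reads of Ggps1 and the ESC RPF libraries 57, 56 and 108.

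The RPF change of Ggps1 was called under all 10 other settings that tested the gene, from −1.62 to −1.36, and in all 12 fits without one library, from −1.95 to −1.23. The TE call is less firm. The TE change kept its sign throughout, but its adjusted p was 0.00264 to 0.0762 over the 10 settings, below 0.05 in 4 of them, and 0.0273 to 0.166 over the 12 fits without one library, below 0.05 in 3. Without EpiLC RPF replicate 2, which had the 4 reads, TE changed by −1.27 (adjusted p = 0.136), and without EpiLC RPF replicate 1 by −1.99 (adjusted p = 0.0429). A share of 51.0% of the 29-base windows of Ggps1, about the length of an RPF, and 35.4% of its 45-base windows, nearer to a total RNA read, also occur in transcripts of Gm5630. With single-position reads only, fewer of its positions could be counted in RPF than in total RNA, in both cell types. The part of this in the change was not tested.

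**Figure D2:**
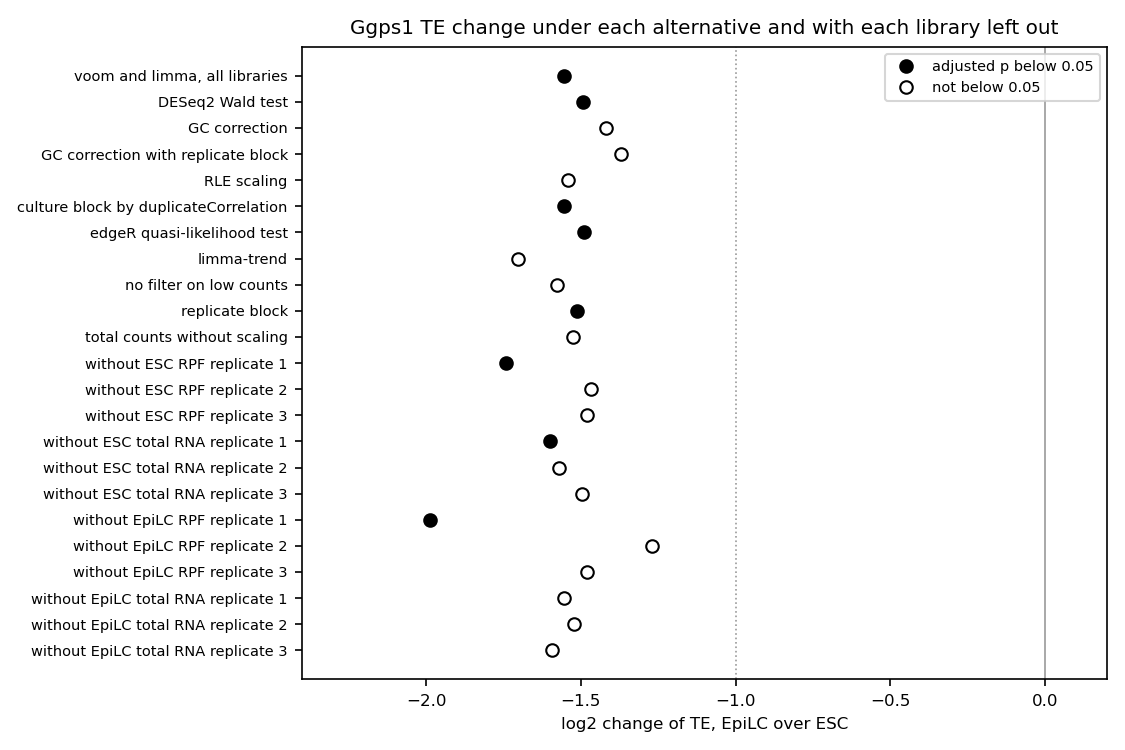
Log2 change of TE of Ggps1, EpiLC over ESC, with all libraries, under each other setting and with each library left out. Filled points have an adjusted p below 0.05 and the dotted line marks a change of −1. Every point lies between −1.99 and −1.27, and 8 of the 23 points are filled.

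Read as a ratio, the RPF of Hmgcs1 were 1.58 times its total RNA in ESCs and 1.60 times in EpiLCs, in CPM, at percentiles 82.8 and 80.9 of the tested genes. Sqle had a ratio of 0.801 in ESCs and 0.803 in EpiLCs. The log2 ratios of Ggps1, by replicate number, were −1.41, −0.67 and −0.78 in ESCs and −1.84, −3.74 and −2.59 in EpiLCs, which did not overlap. The mean for Ggps1 went from percentile 15.4 to percentile 0.979, so that in EpiLCs its RPF were 6.60-fold below its total RNA. Fdps went the other way, from a mean log2 ratio of −0.47 (percentile 30.4) to 0.38 (percentile 68.7), again with no overlap. The ratios of Srebf2 did not overlap either, at −0.24 to −0.072 in ESCs and 0.0095 to 0.096 in EpiLCs. For Fdft1, Sqle, Insig1 and Hmgcs1 the replicates of the cell types overlapped. The share of all tested genes whose ratios did not overlap was not counted, so these separations are a description only. The limma adjusted p of the TE change was 0.158 for Fdps and 0.358 for Srebf2.

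**Figure D3:**
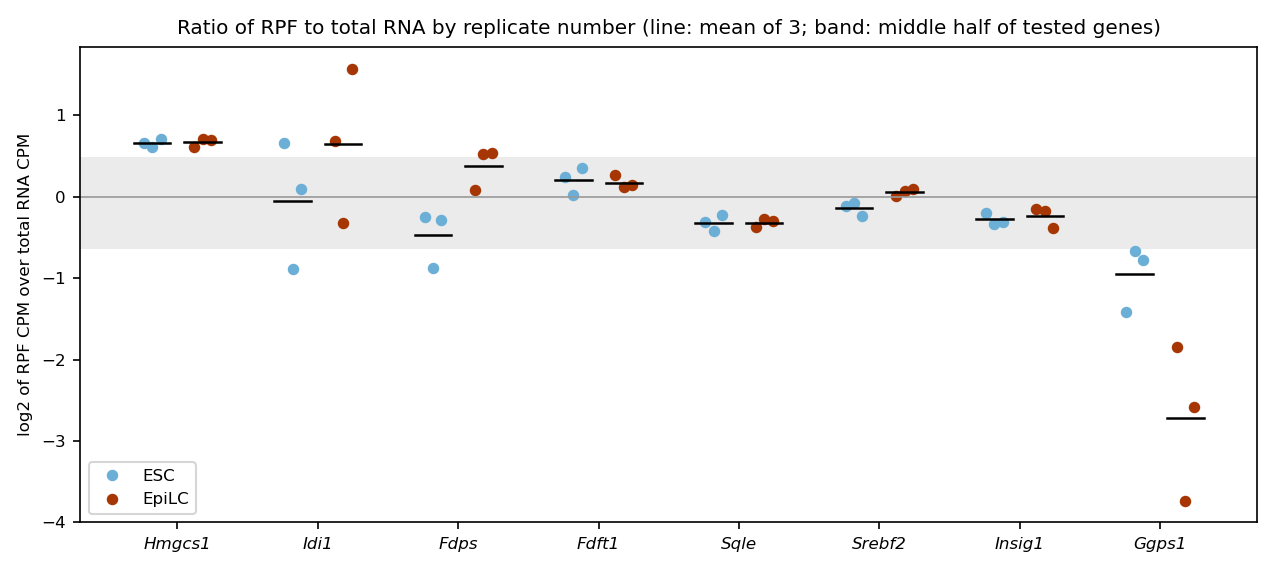
Log2 of RPF CPM over total RNA CPM for same-numbered libraries, for each gene in ESCs (blue) and EpiLCs (brown). Black lines are means of 3, and the grey band spans the quartiles of the tested genes. Ggps1 lies below the band in both cell types and reaches −3.74 in EpiLCs, while Hmgcs1 lies above it in both, and the points of Idi1, which had 4 to 24 counts per library, spread from −0.89 to 1.58.

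Counted together, 7 of the 8 genes passed the filter on low counts, Idi1 being the exception. In total RNA none of the 7 was called in either direction, where 14.6% of the 11750 genes tested were called higher and 9.7% lower. The count was also 0 with edgeR and DESeq2, and at an unadjusted p below 0.05 limma gave 4 higher and 1 lower. By adjusted p alone 3 were higher (Hmgcs1, Sqle and Srebf2) and 0 lower, beside 34.6% and 30.7% of all genes. In RPF 1 was called higher (Fdps) and 1 lower (Ggps1), beside 15.4% and 10.6% of all genes. By adjusted p alone 4 were higher and 1 lower in RPF, beside 31.1% and 28.7%. For TE 0 were called higher and 1 lower (Ggps1), whereas 0.136% of all genes were called higher and 0.119% lower. The 0 higher held with edgeR and DESeq2, and 2 were higher at an unadjusted p below 0.05 in limma, Fdps and Srebf2. The ranges of the cell types did not overlap for 4 of the 7 tested members in total RNA and for 5 in RPF. This is below or near the share among all tested genes, 70.3% and 63.1%. The median log2 change of the 7 genes was 0.16 in total RNA, 0.35 in RPF and 0.013 in TE, against 0.026, 0.011 and 0.0056 for all tested genes.

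**Figure D4:**
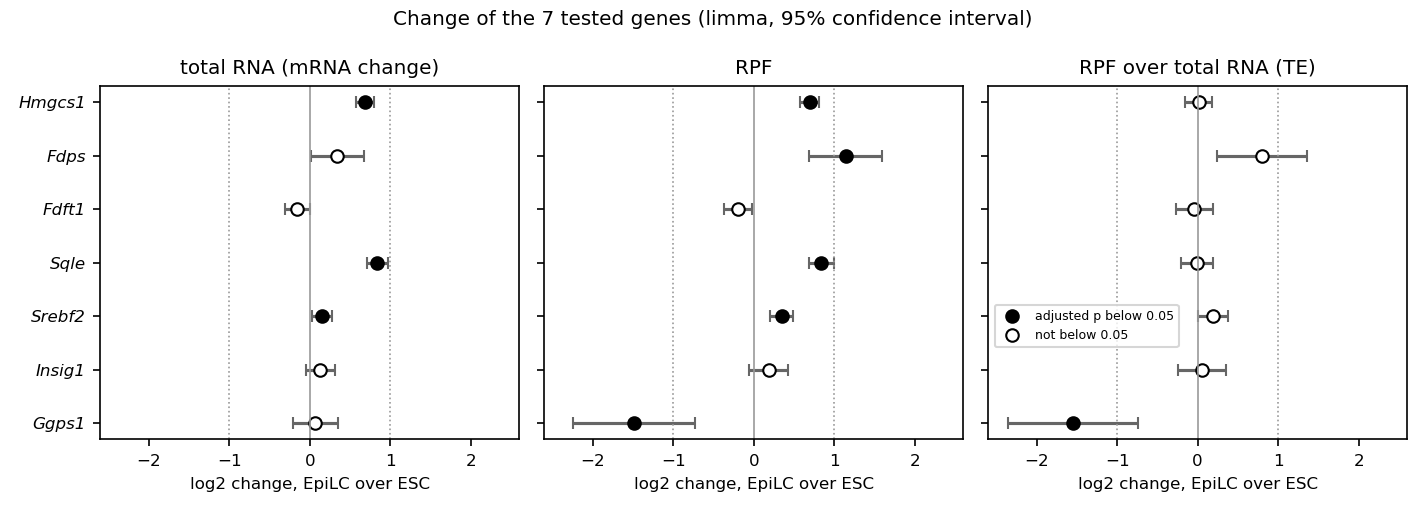
Log2 change of the 7 tested genes in total RNA, RPF and TE, with 95% confidence intervals from limma. Filled points have an adjusted p below 0.05, and dotted lines mark changes of 1 in either direction. In total RNA and RPF the points of Hmgcs1 and Sqle are nearly equal, while Ggps1 is near 0 in total RNA and at −1.48 in RPF.

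The rest of the pathway was taken from 6 lists of 73 genes, members included, of which 71 were tested. In the mevalonate arm (9 genes, 8 tested) 4 genes were higher and 2 lower in RPF by adjusted p alone, with a median log2 change of 0.27, and the 2 that were called are Fdps and Ggps1, described above. Among all tested genes 31.1% were higher and 28.7% lower in RPF by adjusted p alone, and 15.4% and 10.6% were called. In the sterol arm, the 13 enzymes from squalene synthase to cholesterol, 9 were higher and 2 lower in total RNA by adjusted p alone, with a median log2 change of 0.44. Among all tested genes 34.6% were higher and 30.7% lower in total RNA by adjusted p alone. In RPF 8 of the sterol arm were higher and 3 lower, with a median of 0.35, beside 31.1% and 28.7% of all tested genes. Ebp, the sterol isomerase, had the lowest change of the list, at −1.62 in total RNA (SE 0.16, limma adjusted p = 2.32e-09) and −1.70 in RPF (SE 0.16, limma adjusted p = 2.04e-09). None of the 13 genes of the sterol arm was called for TE with limma, edgeR or DESeq2 (1 higher at an unadjusted p below 0.05 in each), and their TE changes ran from −0.32 to 0.26. Among all tested genes 0.136% were called higher and 0.119% lower for TE with limma.

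Among 11 genes of sterol sensing, which hold or process SREBP or degrade its targets, 4 were higher and 1 lower in total RNA by adjusted p alone, and 3 and 1 in RPF. The shares of all tested genes were 34.6% and 30.7% in total RNA and 31.1% and 28.7% in RPF. Rnf145, a ubiquitin ligase of the endoplasmic reticulum, rose by 1.1415 in total RNA (SE 0.074, limma adjusted p = 1.05e-12).

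**Figure D5:**
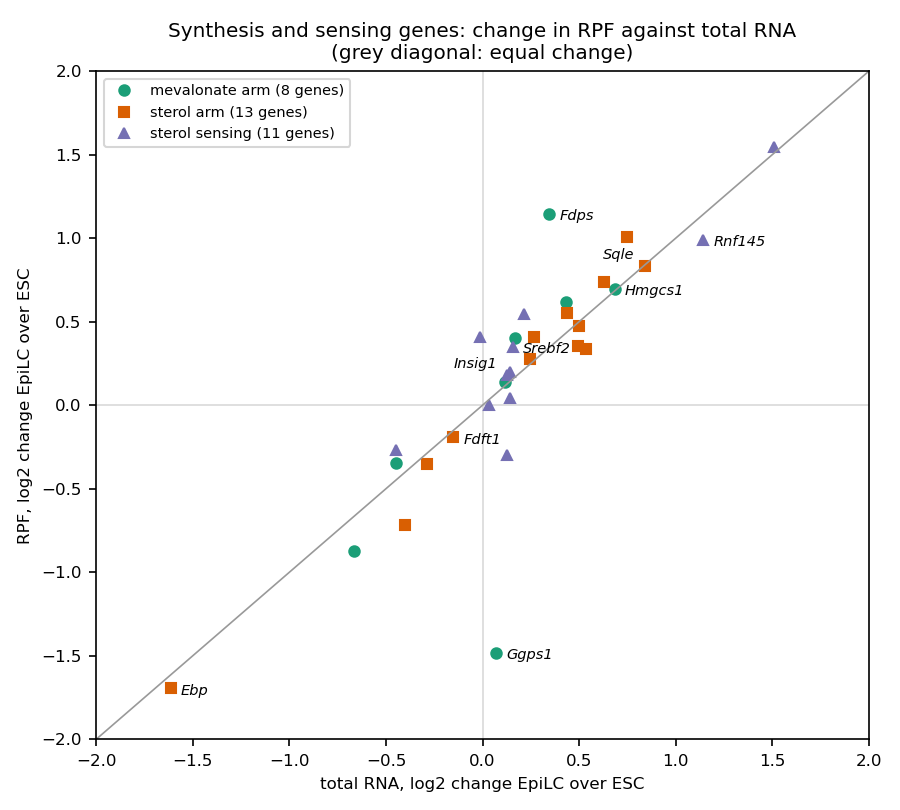
Log2 change in RPF against log2 change in total RNA for the 32 tested genes of the mevalonate arm, the sterol arm and sterol sensing, with the line of equal change. Named are the members tested, Ebp and Rnf145. Most genes lie near the line, Ebp at its lower end, while Ggps1 lies far below it and Fdps above it.

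Genes of sterol uptake and efflux had the widest spread of the lists. Of 13 tested, 4 were called higher and 2 lower in each assay. Among all tested genes 14.6% were called higher and 9.7% lower in total RNA, and 15.4% and 10.6% in RPF. Soat1, which esterifies cholesterol for storage, rose by 2.91 in total RNA (SE 0.14) and 3.23 in RPF (SE 0.17). Lipa, the lysosomal enzyme that frees cholesterol from its esters, rose by 2.03 (SE 0.28) and 2.41 (SE 0.35). Abca1, which exports cholesterol, fell by 3.65 in total RNA (SE 0.34) and fell by 4.53 in RPF (SE 0.59), with 2 to 3 RPF counts per EpiLC library, and Mylip, a ligase that removes lipoprotein receptors, fell by 1.23 (SE 0.23) and fell by 1.32 (SE 0.28). In these 4 genes both changes were called with voom and limma.

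Outside the sterol branch, none of the 15 genes that use isoprenoids for prenylation, dolichol or ubiquinone, or that process prenylated proteins, was called in total RNA or RPF with limma, edgeR or DESeq2. With limma 14.6% of all tested genes were called higher and 9.7% lower in total RNA, and 15.4% and 10.6% in RPF. By adjusted p alone in limma 4 of the 15 were higher and 6 lower in total RNA, and 3 and 4 in RPF, with median changes of −0.030 and −0.14. The shares of all tested genes were 34.6% and 30.7% in total RNA and 31.1% and 28.7% in RPF. Of 11 genes of fatty acid synthesis 7 were lower and 2 higher in total RNA by adjusted p alone, beside 30.7% and 34.6% of all tested genes. Their median in total RNA was −0.36, and the desaturases Scd1 and Scd2 fell by 1.09 (SE 0.10) and fell by 1.01 (SE 0.071). In RPF 4 of the 11 were lower and 1 higher by adjusted p alone, beside 28.7% and 31.1% of all tested genes. The median in RPF was −0.10, and none of the 11 was called with limma. The RPF changes of Scd1 and Scd2 were −0.96 (SE 0.11) and −0.74 (SE 0.063), short of the fold threshold. Scd1 and Scd2 share 41.4% and 35.8% of their 29-base windows with other Scd genes. Over all 71 tested genes, 1 was called for TE, Ggps1, and 1 more passed the adjusted p alone, in the higher direction, Fasn, at 0.35 (SE 0.076, limma adjusted p = 0.0209), named after its value was seen. Among all genes, 0.57% were higher and 0.63% lower in TE by adjusted p alone, and 0.136% and 0.119% were called.

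Finally, the genes were compared by their pattern over the 12 libraries, as a description, since libraries of a cell type and assay share their level. Sqle had the highest Pearson r with the mean standardised log2 CPM of the 7 tested members, itself included (r = 0.948). Fdft1 ran against this mean (r = −0.531), and Ggps1 did not follow it (r = −0.143). The pair of members with the highest r was Fdps and Srebf2 (r = 0.811), and the lowest was Hmgcs1 and Ggps1 (r = −0.800). Of the other tested genes, the 5 most like this mean were Klf7 (r = 0.979), Ica1 (r = 0.972), Kcng3 (r = 0.969), Fam83f (r = 0.965) and Itgb8 (r = 0.964). In all, 565 genes had an r above 0.9 with it, so that a pattern of this kind was common.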

How the data were processed

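RPF and total RNA of ESCs and EpiLCs were sequenced after preparation with a commercial kit (TruSeq). The authors deposited raw counts per gene. Per the labels, the study's methods and the file headers, cutadapt 1.14 removed adapters and kept RPFs of 26 to 32 nt, STAR 2.5.3a placed the reads on mm10 (Gencode M14), keeping those with a single position, and featureCounts 1.5.3 counted 5′ ends on the sense strand over coding sequence without its first 45 nt. The replicates stayed separate. The treatment of PCR duplicates is not stated. The study calls the replicates biological but does not describe whether they were separate cultures. The p-values measure the spread between these libraries.

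Here symbols were matched by gene identifier (22385 of 22462 genes). Genes with at least 3 CPM in at least 3 libraries (11750) were fitted with voom and limma 3.58.1 in R 4.3.3, after TMM scaling in edgeR 4.0.16, in a single model with the 4 groups as levels and no replicate block. The contrasts were EpiLC over ESC in total RNA (the mRNA change), in RPF, and their difference (TE). Benjamini-Hochberg adjustment ran over all genes tested. Fitted changes add 0.5 to the counts. The study's methods name limma, the interaction and the CPM filter. They do not name voom or TMM. The alternatives were edgeR's quasi-likelihood test, DESeq2 1.42.0, limma-trend, other scalings and filters, GC correction, blocks and leaving out each library. Ratios of RPF to total RNA used log2 CPM with a prior count of 0.5 and same-numbered libraries. Shared windows were exact matches of 29 or 45 bases in Gencode M21 transcripts, a later release on the same assembly.

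The members, lists and tests were chosen with earlier results of these data known. Named beside the members were up to 3 of the largest rises and falls among the called genes of each list, genes called for TE, and the 5 genes most like the members. Not every gene that this rule selects is reported. Intervals are 95% confidence intervals from limma.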

Additional observations from a re-analysis of the deposited data

Results flagged for a closer look

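The RPF change of Ggps1 differed from its total RNA change, which is the test of the difference between the assays. The TE change was −1.55 (SE 0.39, limma adjusted p = 0.0474), from an mRNA change of 0.071 and an RPF change of −1.48. All 3 EpiLC log2 ratios of RPF to total RNA were below all 3 ESC ratios, a separation whose share among all tested genes was not counted. The RPF libraries behind this value held 4 to 26 counts of Ggps1 in EpiLCs and 56 to 108 in ESCs, and part of its sequence is shared with Gm5630. The part of either in the change was not tested.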

How the results depend on the processing

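Among the members, only calls of Ggps1 changed under the alternatives run. The count of members, and of pathway genes, called lower for TE was 1 with all libraries and 0 under GC correction, GC correction with the replicate block, RLE scaling, a filter of at least 10 counts in every library, limma-trend, no filter and total counts without scaling, and it was 0 to 1 over the 12 fits without one of the libraries. With the filter of 10 counts, which removes Ggps1 and Abca1, 0 members and 2 pathway genes were called lower for RPF, in place of 1 and 4. DESeq2 called 1 pathway gene higher for TE, in place of 0. Other calls of pathway genes moved by 1, to 6 to 8 higher in RPF, up to 5 lower in RPF, and 5 to 6 higher and 4 to 5 lower in total RNA. The TE change of Sqle, −0.0045, turned positive under DESeq2 (0.013), GC correction (0.054), GC correction with the replicate block (0.055), RLE scaling (0.0093), the filter of 10 counts (0.018), limma-trend (0.0035), no filter (0.0035) and total counts (0.024). Leaving out a library gave TE changes of −0.067 to 0.047 for Sqle, −0.12 to 0.015 for Fdft1, −0.051 to 0.052 for Hmgcs1 and −0.0095 to 0.14 for Insig1, and none of these passed the threshold. The causes were not tested, apart from the removal of these genes by the filter. The labels do not say whether same-numbered libraries belong together. Deviations of same-numbered libraries from their group means correlated at −0.013 to 0.040 between the cell types. Between RPF and total RNA of a cell type they correlated at −0.182 to 0.163. With 3 libraries per group these correlations cannot settle a pairing. With the replicate block Ggps1 was called for TE at −1.51 (adjusted p = 0.0324), and no call of a member was lost. Of the values for single genes, 472 kept their direction and stayed called or not called (a ratio moved by less than 1 SD). Among these the adjusted p of Fdft1, of Srebf2 total RNA and of Fdps total RNA crossed 0.05 in some fits. Depth limits Idi1, Fdps and Ggps1, whose RPF libraries held fewer than 110 counts.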
